A study of Mus musculus with 9 samples.

Results

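Genes of the pre-mRNA splicing machinery were followed in the mouse dendritic cell line DC2.4. The set holds 51 of the 21959 genes in the deposited table and was picked by symbol as SR proteins, heterogeneous nuclear ribonucleoproteins (hnRNPs), core spliceosome components and kinases of SR proteins. All 51 passed the filter on low counts, so that none drops out of the counts below. DC2.4 is an immortalised line of bone marrow origin, and total RNA was sequenced in 9 libraries. They form 3 groups of 3, named OMVSSDC, PBSDC and ZJDC in the sample titles. The series' design text speaks of engineered extracellular vesicles given to DC2.4 cells and of immune-related expression. The labels give the same line, cell type and RNA extraction for all groups and do not spell out OMVSS or ZJ, a dose, a time of exposure or separate cultures. PBSDC was taken as the reference because PBS is the usual short name of phosphate-buffered saline, a vehicle. The p-values therefore measure the spread between these libraries, which may be technical only.

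Pre-mRNA splicing removes introns through the spliceosome, which assembles from small nuclear ribonucleoproteins (snRNPs) on the splice sites of each transcript. SR proteins bind exons and favour recognition of nearby splice sites, hnRNPs coat nascent transcripts and often repress or shift splice site choice, and kinases of the CLK family phosphorylate SR proteins. Many of these genes contain exons whose inclusion or skipping sends the transcript to nonsense-mediated decay, through which the proteins limit their own amounts. The counts are per gene, so that productive and decaying transcripts cannot be told apart here, nor can fewer cells and less RNA per cell in bulk samples. The sources used here do not state how reads that match several places were counted or whether strand was used. Values of genes with near-identical relatives or processed pseudogenes, such as Hnrnpa1, Hnrnpa3, Srsf3 and Pcbp1, are uncertain for that reason.

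Library totals ranged from 12784931 to 18388959 counts, and the lowest count of any splicing factor gene in any library was 250 (Srsf4). Levels are given as CPM, read counts per library size, scaled between libraries by the trimmed mean of M-values (TMM). Marker levels are CPM of the raw library totals. All 14 dendritic and myeloid markers were detected, but Flt3 had at most 4 counts and was at 0 in 3 libraries. Itgax was also low, at 1.61 to 4.83 CPM over all libraries, as was Zbtb46, at 2.73 to 9.95 CPM. Together the 14 summed to 4960 to 5126 CPM in PBSDC, 4734 to 4831 in ZJDC and 4884 to 5057 in OMVSSDC. Flt3, Itgax and Zbtb46 added little to that sum. Single markers moved in opposite ways within that sum. Lyz2 stood at 798 to 824 CPM in PBSDC against 268 to 342 in the other 6 libraries, Csf1r at 1044 to 1122 against 527 to 628, Itgam at 314 to 330 against 102 to 172, and Cd68 at 814 to 831 against 1200 to 1780. Of 20 heart or brain markers 19 were detected, with Myl7 at 0. Their sum also moved with the groups, at 70.5 to 72.8 CPM in PBSDC, 38.6 to 48.2 in ZJDC and 20.4 to 39.2 in OMVSSDC. Most of it came from Ttn and Tnnt2. Ttn was at 35.4 to 36.2 CPM in PBSDC against 12.8 to 22.1 in the other 6 libraries, and Tnnt2 at 17.4 to 19.9 against 2.38 to 7.12. All 8 fibroblast or endothelial markers were detected, summing to 26.4 to 30.6 CPM in PBSDC, 16 to 21.4 in ZJDC and 11 to 30.8 in OMVSSDC. Within that sum Pecam1 was at 14.3 to 14.8 CPM in PBSDC against 2.53 to 5.91 in the other 6 libraries. Pdgfra went the other way, at 2.03 to 3.01 against 4.15 to 6.93. Granulocyte or erythroid markers, 8 of 8 detected, summed to at most 8.05 CPM, epithelial markers, 7 of 8, to at most 1.77 CPM with Krt19 at 0, and lymphoid markers, 5 of 8, to at most 1.53 CPM with Cd3e, Cd8a and Ncr1 at 0. The part of these differences in the results was not tested. The OMVSSDC libraries did not form one tight group. Over the 51 genes the median absolute log2 difference was 0.05 between replicates 1 and 2, but 0.26 and 0.22 between each of these and replicate 3. Replicate 3 lay 0.14 to 0.15 from the ZJDC libraries. For the full set and for some genes, results on OMVSSDC are therefore also given without replicate 3 or with replicate 3 alone. The values of other genes also moved with that library. Some trace markers split in the same way. Col3a1 was at 0 CPM in OMVSSDC replicates 1 and 2 and at 6.73 in replicate 3. It was at 0.918 to 3.01 in PBSDC and 1.58 to 3.6 in ZJDC. Myh6 was at 0.0767, 0 and 3.06 in OMVSSDC, 3.78 to 5.44 in PBSDC and 2.61 to 6.13 in ZJDC. Others did not split, such as Pdgfra at 6.75, 5.6 and 6.93 in OMVSSDC. What these traces reflect was not tested. The labels name no batch that would separate the OMVSSDC libraries.

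The splicing factor genes took a smaller share of all counts in OMVSSDC and ZJDC than in PBSDC. Their summed counts made up 1.73%, 1.77% and 1.77% of the 3 PBSDC libraries. They made up 1.23%, 1.24% and 1.23% in ZJDC, and 1.09%, 1.09% and 1.14% in OMVSSDC. The 3 groups did not overlap, and every OMVSSDC library lay below every ZJDC library. Mean shares were 1.76% ± 0.0215 (SD, n = 3) in PBSDC, 1.23% ± 0.00641 in ZJDC and 1.11% ± 0.0305 in OMVSSDC. Transcripts encoded by mitochondrial DNA also moved with the groups, at 6.89% to 7.84% of counts in PBSDC, 4.6% to 5.72% in ZJDC and 1.81% to 4.44% in OMVSSDC. With these transcripts left out of the totals the shares were 1.9% in PBSDC, 1.3% in ZJDC and 1.14% in OMVSSDC. The summed share of Clk1 and Clk4 went the other way, from 0.0158% to 0.0161% in PBSDC to 0.0189% to 0.0201% in ZJDC and 0.0225% to 0.0262% in OMVSSDC. By the tests below, Clk1 was called higher in both comparisons with PBSDC and Clk4 in neither.

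**Figure D1:**
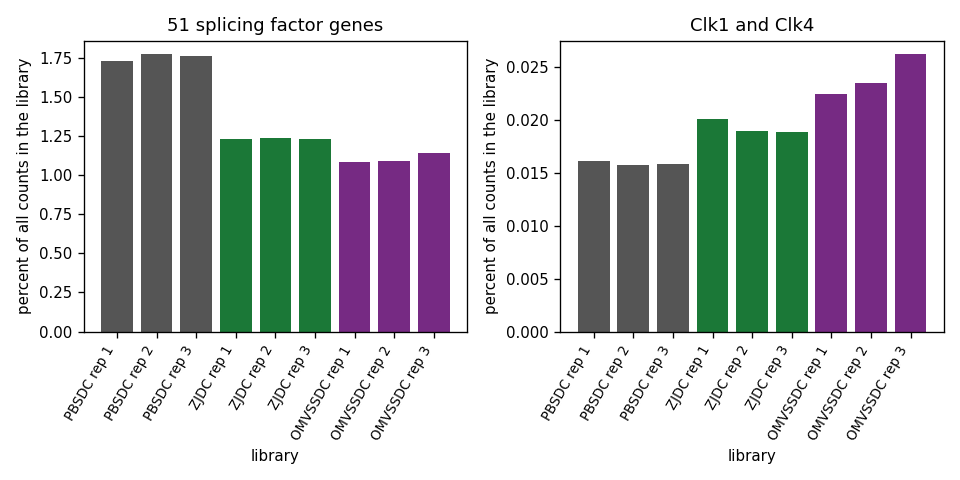
Percent of all counts in each library that fell on the 51 splicing factor genes (left) and on Clk1 and Clk4 (right), 1 bar per library, both axes from 0. The bars of the 51 genes stand at 1.73% to 1.77% in PBSDC, 1.23% to 1.24% in ZJDC and 1.09% to 1.14% in OMVSSDC, whereas those of Clk1 and Clk4 are lowest in PBSDC.

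Each group was compared with PBSDC, and OMVSSDC with ZJDC, by edgeR's quasi-likelihood test over 11568 genes, with a gene called at a Benjamini-Hochberg adjusted p under 0.05. In OMVSSDC against PBSDC, 44 of the 51 genes were lower, 1 was higher and 6 were not called. Of all tested genes 63.6% were called in that comparison, 33.4% higher and 30.2% lower, against 86.3% of the splicing factor genes lower. Among the 6967 genes at or above the mean level of the lowest splicing factor gene (Srsf4, 22.1 CPM), 38.5% were lower. The median log2 fold change was -0.77 over the 51 genes and 0.05 over all tested genes, and 16 of the 51 were more than 2-fold lower. The groups did not overlap for 44 of the 51 genes, against 65.7% of all tested genes. With OMVSSDC replicate 3 left out 46 of the 51 genes were lower, against 36% of all 11761 genes then tested. With replicate 3 as the only OMVSSDC library the median log2 fold change was -0.71 over the 51 genes and 0.01 over all tested genes.

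In ZJDC against PBSDC, 41 of the 51 genes were lower, 2 were higher and 8 were not called. Of all tested genes 54.7% were called, 27.6% higher and 27.1% lower, against 80.4% of the splicing factor genes lower. Among genes at or above the level of Srsf4, 33.4% were lower. The median log2 fold change was -0.57 over the 51 genes and 0.01 over all tested genes, and 3 genes, Sf3b3, Srsf1 and Hnrnpa2b1, were more than 2-fold lower. The groups did not overlap for 48 of the 51 genes, against 72.2% of all tested genes. Both comparisons use the same PBSDC libraries, so that a low or high PBSDC value enters both. They also share an estimate of the spread of each gene, made from all 9 libraries. The SE, p-values and calls in ZJDC against PBSDC therefore also hold the spread between OMVSSDC libraries. Leaving out an OMVSSDC library can change them while the log2 fold change stays nearly the same. Across the 51 genes the log2 fold change was described by a Pearson r of -0.14 with log10 of the gene length in OMVSSDC and 0.01 in ZJDC. With GC content of the transcripts it was -0.08 and -0.19.

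**Figure D2:**
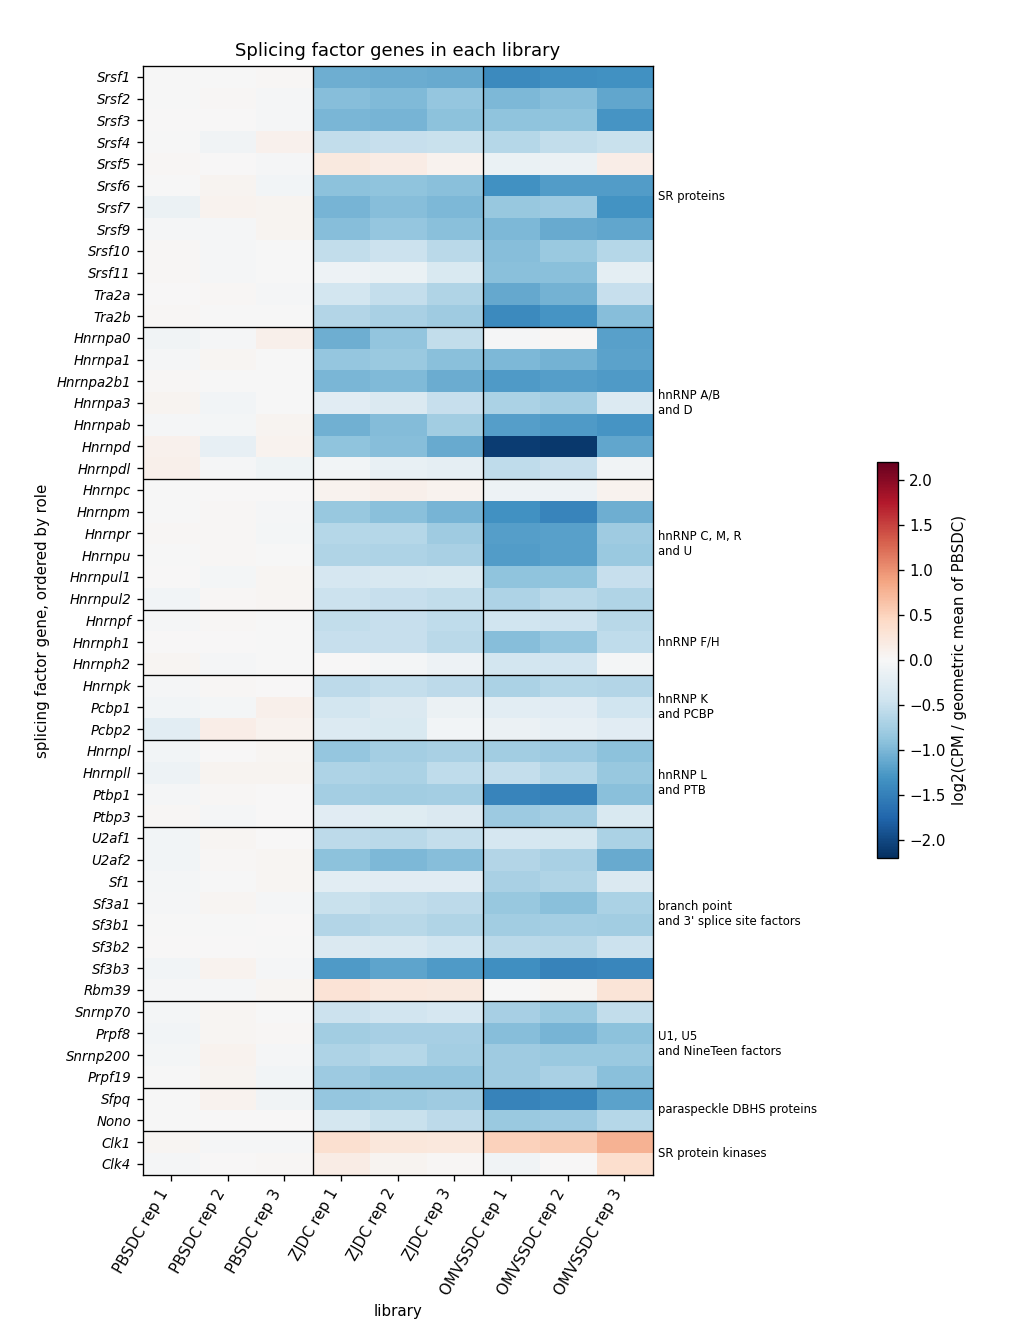
Level of each of the 51 splicing factor genes in each of the 9 libraries, as log2 of its CPM over the geometric mean of the 3 PBSDC libraries. Rows are ordered by role and columns by group. Blue is lower and red higher than PBSDC. ZJDC and OMVSSDC columns are blue in most rows, OMVSSDC replicate 3 differs from replicates 1 and 2 in many rows, and Clk1 is red in all 6.

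Promoter sequence was matched to the whole set, whether or not a gene was called, as a description of what its members share. RefSeq promoter windows of the GRCm38.p6 build, from 250 bases before to 50 after the annotated start, were found for 46 of the 51 genes. The CCAAT box (letters CCAAT, either strand) was present in 28 of 46, or 60.9%, against 43.7% of tested genes with a window and 37.4% of all windows. The ETS motif CCGGAAG was present in 13 of 46, or 28.3%, against 21% of tested genes and 8.86% of all windows. The GC box GGGCGG stood in 34 of 46 (73.9%, against 68.8% and 35.7%), and the E-box CACGTG in 7 of 46 (15.2%, against 11.8% and 7.15%). The YY1 motif AAGATGG was found in 3 of 46 (6.52%, against 8.73% and 6.34%), and TATAAA in 5 of 46 (10.9%, against 8.51% and 13.6%). A gene was counted where any of its windows matched, and 35 of the 46 genes had 1 window, whereas all windows were counted singly. Counted per gene over all 27025 genes, the shares were 41.1% for the CCAAT box, 9.93% for the ETS motif and 38.2% for the GC box. They were 8.09% for the E-box, 7.28% for the YY1 motif and 15.7% for TATAAA. All motifs were searched on both strands, and none of the 6 contains another. The windows of 3 genes are printed 5′ to 3′ on the strand of the gene, with motif matches in capitals. They are those of Srsf1 and Hnrnpd, among the genes that fell most, and of Clk4, which was not called in either comparison with PBSDC. The motifs were not confined to genes that fell. Hnrnpc, also called in neither, held a CCAAT box, and Srsf5 and Pcbp2, likewise called in neither, an ETS motif and a GC box. The Srsf1 window is chr11:88047123-88047422 on the plus strand, with a GC box on the reverse strand and a CCAAT box near the start. The Hnrnpd window is chr5:99978889-99979188 on the minus strand, with an ETS motif on the reverse strand, 3 GC boxes and an E-box. The Clk4 window is chr11:51262864-51263163 on the plus strand, with 1 GC box. A match of letters does not show that a factor binds there.
Srsf1: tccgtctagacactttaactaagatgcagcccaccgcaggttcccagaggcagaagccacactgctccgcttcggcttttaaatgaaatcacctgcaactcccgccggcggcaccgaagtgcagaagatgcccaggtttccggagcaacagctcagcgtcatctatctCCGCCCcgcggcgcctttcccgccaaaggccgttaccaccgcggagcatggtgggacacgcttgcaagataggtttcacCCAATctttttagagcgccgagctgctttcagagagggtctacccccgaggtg
Hnrnpd: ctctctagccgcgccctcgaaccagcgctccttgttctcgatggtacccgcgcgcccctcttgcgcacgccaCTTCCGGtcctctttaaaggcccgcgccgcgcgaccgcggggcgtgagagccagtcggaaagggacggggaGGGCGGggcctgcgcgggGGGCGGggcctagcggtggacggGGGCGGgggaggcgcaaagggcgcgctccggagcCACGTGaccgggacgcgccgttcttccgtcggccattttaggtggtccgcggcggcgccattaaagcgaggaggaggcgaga
Clk4: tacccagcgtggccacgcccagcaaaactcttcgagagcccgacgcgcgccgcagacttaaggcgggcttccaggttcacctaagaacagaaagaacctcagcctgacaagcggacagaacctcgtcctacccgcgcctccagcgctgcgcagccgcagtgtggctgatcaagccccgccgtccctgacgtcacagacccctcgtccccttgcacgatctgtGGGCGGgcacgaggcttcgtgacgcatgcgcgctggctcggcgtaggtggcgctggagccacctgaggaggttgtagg

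Of the 12 SR and SR-like genes, 11 fell in OMVSSDC and 10 in ZJDC, with median log2 fold changes of -0.99 and -0.81. Srsf1, the classical SR protein SF2/ASF, had levels of 356, 355 and 366 CPM in PBSDC, 170, 169 and 166 CPM in ZJDC and 136, 141 and 143 CPM in OMVSSDC. The 3 groups were apart from each other, with OMVSSDC lowest. Its log2 fold change against PBSDC was -1.36 ± 0.06 (SE) in OMVSSDC (adjusted p = 5.09e-08) and -1.09 ± 0.06 in ZJDC (adjusted p = 2.77e-07). Srsf6, another exon-binding SR protein, was at 438, 462 and 425 CPM in PBSDC, 236, 238 and 234 in ZJDC and 176, 189 and 188 in OMVSSDC. The order of the groups was that of Srsf1, again without overlap. It fell by 1.26 on the log2 scale in OMVSSDC (SE 0.06, adjusted p = 1.04e-07) and by 0.90 in ZJDC (SE 0.06, adjusted p = 1.23e-06). Tra2b, which encodes an SR-like activator of exon inclusion, was at 294, 287 and 289 CPM in PBSDC, 185, 177 and 169 in ZJDC and 110, 119 and 151 in OMVSSDC. All OMVSSDC values lay below ZJDC, replicate 3 nearest to it. The log2 fold change was -1.19 ± 0.11 in OMVSSDC (adjusted p = 5.57e-06) and -0.71 ± 0.10 in ZJDC (adjusted p = 0.000245).

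Srsf7 and Srsf3 followed Srsf1 as the largest decreases among SR genes in ZJDC. Srsf7, an SR protein with a zinc knuckle, was at 138, 158 and 156 CPM in PBSDC, 73.7, 78.4 and 75.7 in ZJDC and 84.4, 85.9 and 60.6 in OMVSSDC. Its OMVSSDC replicates 1 and 2 lay above all ZJDC libraries and replicate 3 below them. The log2 fold change was -0.99 ± 0.12 in ZJDC (adjusted p = 7.9e-05) and -0.96 ± 0.12 in OMVSSDC (adjusted p = 6.61e-05). Srsf3, the smallest of the SR proteins and also an mRNA export adaptor, was at 239, 238 and 232 CPM in PBSDC, 118, 117 and 126 in ZJDC and 128, 128 and 96.1 in OMVSSDC. The split of the OMVSSDC libraries was that of Srsf7. It fell by 0.97 in ZJDC (SE 0.10, adjusted p = 2.8e-05) and by 1.01 in OMVSSDC (SE 0.10, adjusted p = 1.52e-05). Srsf2, Srsf4, Srsf9, Srsf10 and Tra2a were called lower in both comparisons, with log2 fold changes from -1.08 (Srsf9) to -0.55 (Srsf4) in OMVSSDC and from -0.91 (Srsf2) to -0.51 (Srsf4) in ZJDC.

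Srsf5 and Srsf11 stood apart from the other SR genes. Srsf5 was at 284, 279 and 272 CPM in PBSDC, 322, 313 and 293 in ZJDC and 253, 254 and 308 in OMVSSDC. It was called in neither comparison (log2 fold change -0.04 ± 0.08, adjusted p = 0.72, and 0.15 ± 0.08, adjusted p = 0.143). Without OMVSSDC replicate 3 both passed the threshold, at -0.14 (adjusted p = 0.00932) and 0.15 (adjusted p = 0.00159). Over the settings adjusted p reached 0.968 and 0.329. Its ZJDC libraries were all above PBSDC, whereas OMVSSDC overlapped PBSDC. Srsf11, an SR-related protein that contacts the 3′ splice site machinery, was at 439, 426 and 428 CPM in PBSDC, 398, 391 and 342 in ZJDC and 227, 229 and 372 in OMVSSDC. OMVSSDC replicates 1 and 2 were far below the other 7 libraries, and replicate 3 fell within the ZJDC range. Srsf11 fell by 0.64 in OMVSSDC (SE 0.17, adjusted p = 0.00681). The value was -0.92 without replicate 3, where it was called, and -0.22 with replicate 3 alone. In ZJDC its log2 fold change was -0.19 ± 0.17 (adjusted p = 0.345), an SE that also holds the spread between the OMVSSDC libraries. Without OMVSSDC replicate 3 it was called there at -0.19 (adjusted p = 0.000438), and over the settings adjusted p reached 0.602.

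**Figure D3:**
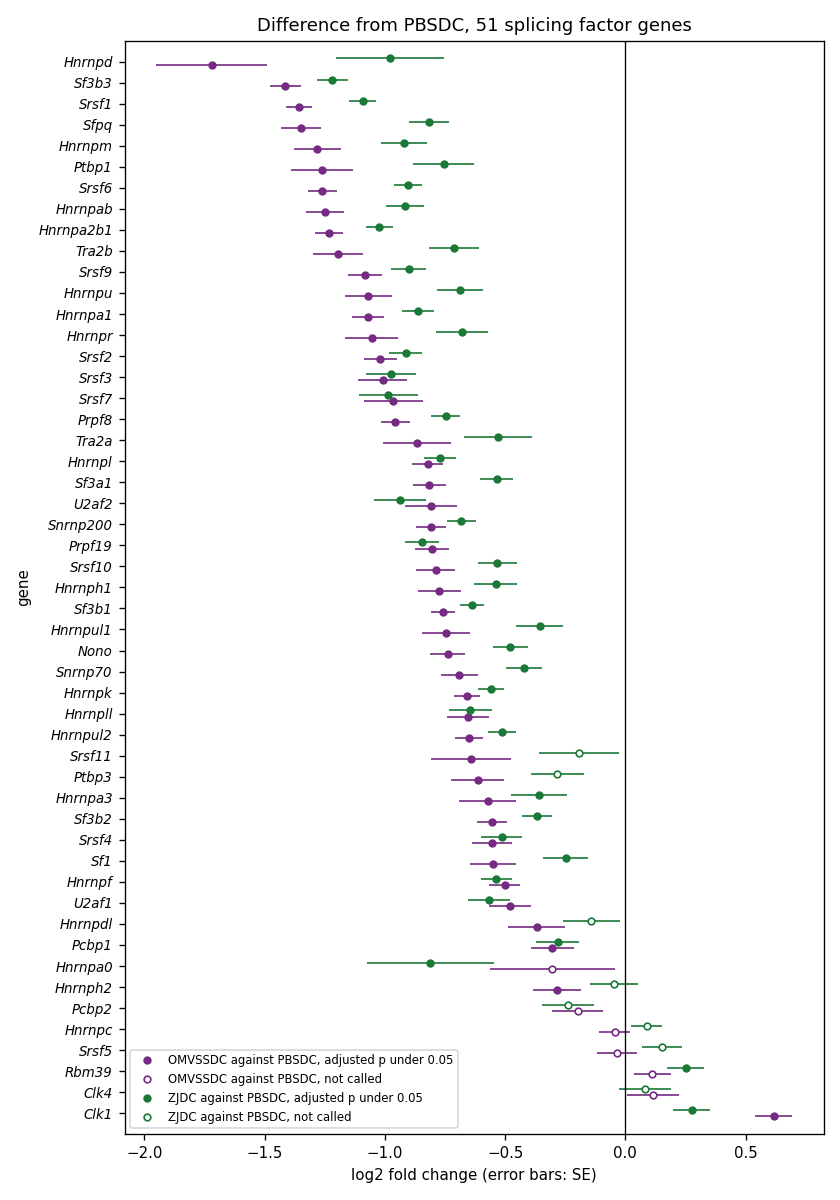
log2 fold change against PBSDC of each splicing factor gene in OMVSSDC (purple) and ZJDC (green), with bars of 1 SE. Filled points have an adjusted p under 0.05 and open points do not. Values in OMVSSDC run from -1.72 (Hnrnpd) to 0.62 (Clk1), those in ZJDC from -1.22 (Sf3b3) to 0.28 (Clk1).

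Among the 7 genes of the hnRNP A/B and D families 6 fell in each comparison with PBSDC, with median log2 fold changes of -1.07 in OMVSSDC and -0.86 in ZJDC. Hnrnpd encodes AUF1, which binds AU-rich elements and is known for promoting decay of cytokine mRNAs, and it had the largest decrease of the set in OMVSSDC. Its levels were 366, 303 and 358 CPM in PBSDC, 184, 178 and 159 in ZJDC and 79.8, 77.9 and 154 in OMVSSDC. All OMVSSDC libraries were below all ZJDC libraries, but replicate 3 lay close to the lowest of them. The log2 fold change was -1.72 ± 0.23 in OMVSSDC (adjusted p = 0.000101) and -0.98 ± 0.23 in ZJDC (adjusted p = 0.00418). In OMVSSDC it was -2.12 without replicate 3, where it was called, and -1.16 with replicate 3 alone. Hnrnpab was at 414, 411 and 438 CPM in PBSDC, 202, 218 and 249 in ZJDC and 182, 177 and 172 in OMVSSDC, with the 3 groups apart. It fell by 1.25 in OMVSSDC (SE 0.08, adjusted p = 6.57e-07) and by 0.92 in ZJDC (SE 0.08, adjusted p = 7.28e-06). Hnrnpa2b1, known for binding of RNA sorted into vesicles and of nuclear viral DNA, was at 935, 912 and 910 CPM in PBSDC, 459, 470 and 429 in ZJDC and 390, 399 and 386 in OMVSSDC. Its OMVSSDC libraries were alike and all below ZJDC. The log2 fold change was -1.23 ± 0.06 in OMVSSDC (adjusted p = 9.61e-08) and -1.02 ± 0.06 in ZJDC (adjusted p = 4.42e-07).

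Hnrnpa1, a repressor of exon inclusion, was called lower in both, at -1.07 in OMVSSDC and -0.86 in ZJDC. Hnrnpa3 was called at -0.57 and -0.36. Its call in ZJDC (adjusted p = 0.0257) was lost without PBSDC replicate 1 or 3 and without ZJDC replicate 2 or 3, with adjusted p from 9.94e-06 to 0.0999 over the settings. Hnrnpdl, a relative of Hnrnpd, was at 207, 187 and 179 CPM in PBSDC, 183, 170 and 166 in ZJDC and 130, 134 and 180 in OMVSSDC. OMVSSDC replicate 3 lay within PBSDC, and replicates 1 and 2 lay below all other libraries. The call in OMVSSDC (log2 fold change -0.37 ± 0.12, adjusted p = 0.0209) was lost without OMVSSDC replicate 1 or 2 or PBSDC replicate 1 and, at -0.09, with replicate 3 alone. Adjusted p ranged from 2.99e-09 to 0.311 over the settings. In ZJDC Hnrnpdl was not called (log2 fold change -0.14 ± 0.12, adjusted p = 0.339). Without OMVSSDC replicate 3 it was called there at -0.14 (adjusted p = 0.0148), and over the settings adjusted p reached 0.657.

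Hnrnpa0, an AU-rich element binding protein linked to stability of inflammatory mRNAs in macrophages, behaved unlike its relatives. Its levels were 82.2, 84.5 and 93.2 CPM in PBSDC, 41.3, 47.2 and 59.3 in ZJDC and 84.5, 87.8 and 37.9 in OMVSSDC. OMVSSDC replicates 1 and 2 lay within the PBSDC range, and replicate 3 lay below every ZJDC library. The gene was not called in OMVSSDC (log2 fold change -0.30 ± 0.26, adjusted p = 0.329). The value was -0.01 without replicate 3 (adjusted p = 0.973) and -1.20 with replicate 3 alone, the ends of its range over the settings. In ZJDC it fell by 0.81 (SE 0.26, adjusted p = 0.0243). That call was lost without any 1 of the 3 PBSDC libraries and without ZJDC replicate 1 or 2, with adjusted p from 0.000182 to 0.0888.

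**Figure D4:**
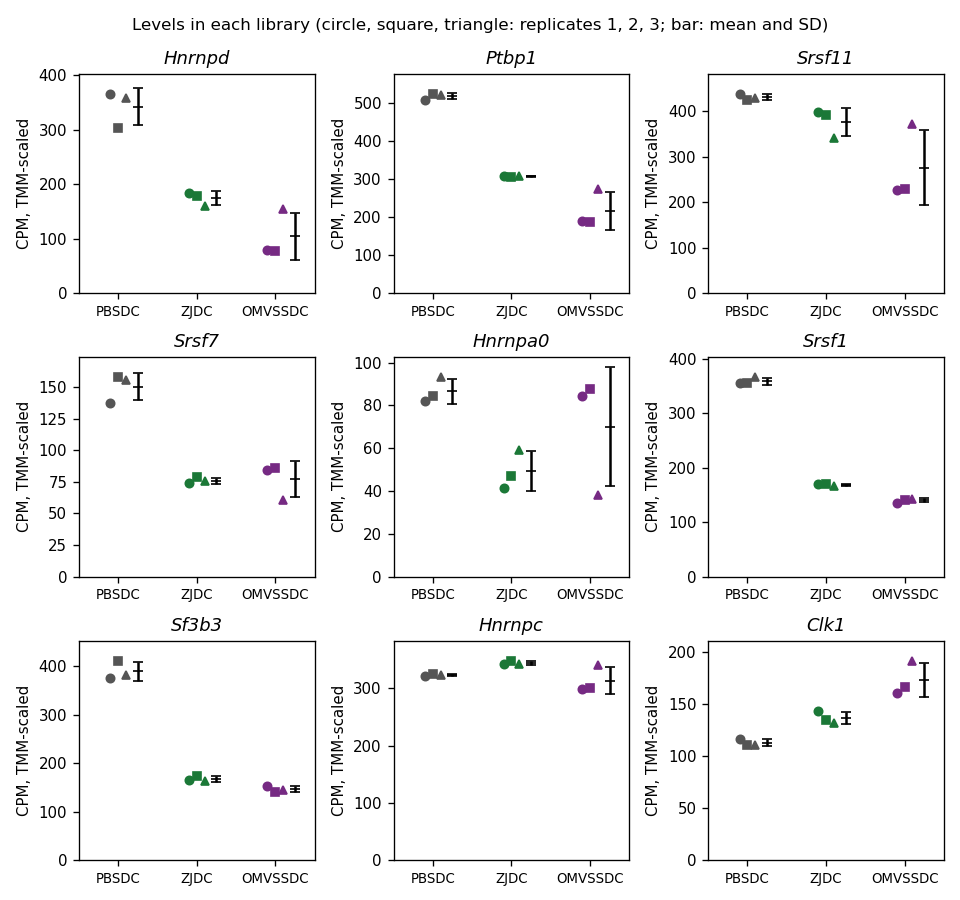
Levels of 9 splicing factor genes in CPM, linear axes from 0, with a circle, a square and a triangle for replicates 1, 2 and 3 of each group and the mean with 1 SD beside them. The triangle of OMVSSDC stands apart for Hnrnpd, Ptbp1, Srsf11, Srsf7 and Hnrnpa0 but not for Srsf1 or Sf3b3.

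In the group of hnRNP C, M, R and U genes, 5 of 6 fell in both comparisons. Hnrnpm encodes a regulator of alternative exons, for which roles in innate immune transcripts of macrophages are known. It was at 490, 504 and 488 CPM in PBSDC, 279, 262 and 242 in ZJDC and 196, 180 and 235 in OMVSSDC, with all groups apart. It fell by 1.28 in OMVSSDC (SE 0.10, adjusted p = 1.98e-06) and by 0.92 in ZJDC (SE 0.10, adjusted p = 2.63e-05). Hnrnpu, a nuclear scaffold protein, was at 1377, 1409 and 1371 CPM in PBSDC, 875, 866 and 841 in ZJDC and 593, 605 and 783 in OMVSSDC, also with all groups apart. Its log2 fold change was -1.07 ± 0.10 in OMVSSDC (adjusted p = 7.07e-06) and -0.69 ± 0.10 in ZJDC (adjusted p = 0.000197). Hnrnpr, Hnrnpul1 and Hnrnpul2 were called lower in both, at -1.05, -0.75 and -0.65 in OMVSSDC and -0.68, -0.36 and -0.51 in ZJDC.

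Hnrnpc, which binds uridine tracts and blocks cryptic exons, was not called in either comparison. It was at 321, 325 and 324 CPM in PBSDC, 341, 348 and 342 in ZJDC and 298, 301 and 341 in OMVSSDC. ZJDC lay wholly above PBSDC by a small margin, and OMVSSDC replicates 1 and 2 lay below PBSDC with replicate 3 above. The log2 fold change was -0.04 ± 0.06 in OMVSSDC (adjusted p = 0.564) and 0.09 ± 0.06 in ZJDC (adjusted p = 0.267). Without OMVSSDC replicate 3 both passed the threshold, at -0.11 (adjusted p = 0.0172) and 0.09 (adjusted p = 0.032), with ranges over the settings of 0.0172 to 0.867 and 0.0313 to 0.434.

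All 3 hnRNP F/H genes were called lower in OMVSSDC and 2 of them in ZJDC. Hnrnph1, which like its relatives binds guanine-rich runs, was at 531, 530 and 523 CPM in PBSDC, 370, 370 and 351 in ZJDC and 277, 292 and 357 in OMVSSDC. OMVSSDC replicate 3 overlapped ZJDC, and both groups were below PBSDC. Its log2 fold change was -0.77 ± 0.09 in OMVSSDC (adjusted p = 3.54e-05) and -0.54 ± 0.09 in ZJDC (adjusted p = 0.000545). Hnrnpf was at 444, 464 and 454 CPM in PBSDC, 312, 320 and 306 in ZJDC and 335, 330 and 297 in OMVSSDC, so that the latter 2 groups overlapped. It fell by 0.50 in OMVSSDC (SE 0.06, adjusted p = 6.42e-05) and by 0.54 in ZJDC (SE 0.06, adjusted p = 5.75e-05). Hnrnph2 was called in OMVSSDC at -0.28 ± 0.10 (adjusted p = 0.0278). That call was lost when any of the 3 PBSDC libraries or OMVSSDC replicate 1 or 2 was left out, and the value was -0.05 with replicate 3 alone. Adjusted p ranged from 1.93e-08 to 0.52. In ZJDC the log2 fold change of Hnrnph2 was -0.05 ± 0.10 (adjusted p = 0.704), and OMVSSDC and ZJDC did not differ past the threshold (adjusted p = 0.135).

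The genes of hnRNP K and the poly(C)-binding proteins, which share KH domains, had the smallest median log2 fold changes of the hnRNP families, -0.30 in OMVSSDC and -0.28 in ZJDC. Hnrnpk was at 688, 715 and 706 CPM in PBSDC, 472, 488 and 473 in ZJDC and 432, 456 and 448 in OMVSSDC, without overlap. It fell by 0.66 in OMVSSDC (SE 0.05, adjusted p = 3.24e-06) and by 0.56 in ZJDC (SE 0.05, adjusted p = 1.5e-05). Pcbp1, an intronless gene, was at 255, 257 and 285 CPM in PBSDC, 201, 212 and 243 in ZJDC and 225, 224 and 197 in OMVSSDC. Both groups lay below PBSDC and overlapped each other. Its calls at -0.30 ± 0.09 in OMVSSDC (adjusted p = 0.0129) and -0.28 ± 0.09 in ZJDC (adjusted p = 0.0223) were both lost without PBSDC replicate 3 and with library size alone as the scaling. The second was also lost without ZJDC replicate 1 or 2. Adjusted p ranged from 7.76e-05 to 0.154 in OMVSSDC and from 0.000723 to 0.0974 in ZJDC. Pcbp2, known as a brake on antiviral signalling through MAVS, was called in neither (-0.20 ± 0.11, adjusted p = 0.131, and -0.24 ± 0.11, adjusted p = 0.0851). Its PBSDC libraries, at 260, 338 and 323 CPM, overlapped both other groups.

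All 4 genes of the hnRNP L and polypyrimidine tract-binding (PTB) families fell in OMVSSDC and 3 of them in ZJDC. Ptbp1, a repressor of exons flanked by pyrimidine tracts, was at 508, 525 and 521 CPM in PBSDC, 308, 305 and 308 in ZJDC and 189, 186 and 273 in OMVSSDC. All 3 groups were apart, with OMVSSDC replicates 1 and 2 lowest. The log2 fold change was -1.26 ± 0.13 in OMVSSDC (adjusted p = 1.53e-05) and -0.76 ± 0.13 in ZJDC (adjusted p = 0.000637). Hnrnpl was at 413, 436 and 446 CPM in PBSDC, 241, 257 and 262 in ZJDC and 255, 247 and 231 in OMVSSDC, the latter 2 overlapping. It fell by 0.82 in OMVSSDC (SE 0.07, adjusted p = 2.74e-06) and by 0.77 in ZJDC (SE 0.07, adjusted p = 6.41e-06). Hnrnpll, known for regulating CD45 exons in lymphocytes, was called lower at -0.65 and -0.64. Ptbp3, the PTB relative of blood cells, fell by 0.61 in OMVSSDC and just missed the threshold in ZJDC (log2 fold change -0.28 ± 0.11, adjusted p = 0.0506), with a range of 1.58e-07 to 0.131 over the settings. Its ZJDC libraries, at 358, 355 and 341 CPM, were all below the 435, 419 and 428 CPM of PBSDC.

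Among the 8 genes of branch point and 3′ splice site recognition, 7 fell in each comparison. Sf3b3, a scaffold subunit of the SF3b complex that recognises the branch point within the U2 snRNP, had the largest decrease of the 51 genes in ZJDC. It was at 375, 412 and 383 CPM in PBSDC, 164, 174 and 164 in ZJDC and 153, 141 and 144 in OMVSSDC. All groups were apart, and OMVSSDC replicate 3 lay between replicates 1 and 2. Its log2 fold change was -1.22 ± 0.06 in ZJDC (adjusted p = 3.6e-07) and -1.41 ± 0.07 in OMVSSDC (adjusted p = 9.38e-08). Sf3b1, the subunit that grips the branch point helix, was called at -0.76 ± 0.05 in OMVSSDC and -0.64 ± 0.05 in ZJDC. Sf3b2 was called at -0.56 and -0.37.

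Sf3a1, of the SF3a complex, was at 253, 266 and 254 CPM in PBSDC, 184, 177 and 173 in ZJDC and 144, 137 and 159 in OMVSSDC, with all groups apart. It fell by 0.82 in OMVSSDC (SE 0.07, adjusted p = 4.01e-06) and by 0.53 in ZJDC (SE 0.07, adjusted p = 0.000101). U2af2, the large subunit of the factor that binds the polypyrimidine tract, was at 235, 248 and 251 CPM in PBSDC, 131, 124 and 128 in ZJDC and 157, 149 and 113 in OMVSSDC. ZJDC lay between OMVSSDC replicates 1 and 2 above it and replicate 3 below it. Its log2 fold change was -0.94 ± 0.11 in ZJDC (adjusted p = 4.99e-05) and -0.81 ± 0.11 in OMVSSDC (adjusted p = 9.71e-05). U2af1, the small subunit that reads the terminal AG of the intron, was called at -0.57 in ZJDC and -0.48 in OMVSSDC. Sf1, the first protein to bind the branch point, was called at -0.55 in OMVSSDC and -0.25 in ZJDC (adjusted p = 0.0468). The latter call was lost when any of the 6 PBSDC and ZJDC libraries was left out, with a range of 1.29e-06 to 0.131.

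Rbm39, an SR-related U2AF homologue, did not fall. It was at 482, 482 and 503 CPM in PBSDC, 602, 576 and 567 in ZJDC and 486, 506 and 595 in OMVSSDC. ZJDC was wholly above PBSDC, and of the OMVSSDC libraries replicate 3 lay in the ZJDC range. In ZJDC Rbm39 rose by 0.25 on the log2 scale (SE 0.08, adjusted p = 0.02). The call was lost without PBSDC replicate 1 or 2 or ZJDC replicate 1 or 2, with a range of 8.65e-07 to 0.076. In OMVSSDC it was not called (0.11 ± 0.08, adjusted p = 0.229). The value was 0.02 without replicate 3 (adjusted p = 0.682) and 0.28 with replicate 3 alone.

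The 4 genes of U1, U5 and Prpf19 complex proteins all fell in both comparisons. Prpf8, the scaffold at the catalytic centre of the spliceosome, was at 843, 907 and 904 CPM in PBSDC, 519, 531 and 531 in ZJDC and 462, 434 and 472 in OMVSSDC, without overlap. Its log2 fold change was -0.96 ± 0.06 in OMVSSDC (adjusted p = 5.23e-07) and -0.75 ± 0.06 in ZJDC (adjusted p = 3.99e-06). Snrnp200, the helicase that unwinds U4 from U6, was at 312, 338 and 314 CPM in PBSDC, 200, 208 and 192 in ZJDC and 186, 182 and 183 in OMVSSDC. It fell by 0.81 in OMVSSDC (SE 0.06, adjusted p = 1.8e-06) and by 0.68 in ZJDC (SE 0.06, adjusted p = 8.57e-06). Prpf19, the ubiquitin ligase that activates the assembled spliceosome, was at 141, 149 and 137 CPM in PBSDC, 81.9, 78.4 and 77.9 in ZJDC and 82.9, 87.2 and 75.1 in OMVSSDC, the latter 2 groups overlapping. It fell by 0.84 in ZJDC (SE 0.07, adjusted p = 5.72e-06) and by 0.80 in OMVSSDC (SE 0.07, adjusted p = 5.46e-06). Snrnp70, the U1-70K protein of 5′ splice site recognition, was called at -0.69 in OMVSSDC and -0.42 in ZJDC.

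Both paraspeckle proteins of the DBHS family fell. Sfpq was at 535, 567 and 509 CPM in PBSDC, 298, 305 and 311 in ZJDC and 194, 201 and 237 in OMVSSDC, and Nono at 494, 500 and 501, at 382, 357 and 335, and at 284, 287 and 324 CPM in the same order. For each gene the 3 groups were apart, with OMVSSDC lowest. Sfpq fell by 1.35 in OMVSSDC (SE 0.08, adjusted p = 5.11e-07) and by 0.82 in ZJDC (SE 0.08, adjusted p = 1.98e-05). Nono fell by 0.74 (SE 0.07, adjusted p = 1.16e-05) and by 0.48 (SE 0.07, adjusted p = 0.000312).

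Clk1, a kinase of SR proteins whose own transcript is held partly unspliced in the nucleus and is spliced on demand, was the one gene called higher in both comparisons with PBSDC. It was at 116, 111 and 110 CPM in PBSDC, 143, 134 and 132 in ZJDC and 161, 166 and 191 in OMVSSDC. The 3 groups were apart, in the reverse of the order seen for Srsf1. It rose by 0.62 on the log2 scale in OMVSSDC (SE 0.08, adjusted p = 6.21e-05) and by 0.28 in ZJDC (SE 0.08, adjusted p = 0.0116). The latter call was lost without ZJDC replicate 1 (0.24, adjusted p = 0.0526, range from 6.66e-06). Clk4, its closest relative, was called in neither, with log2 fold changes of 0.11 ± 0.11 (adjusted p = 0.378) and 0.08 ± 0.11 (adjusted p = 0.538). Its OMVSSDC libraries were at 50.8, 54.5 and 69.6 CPM, against 52.8, 54.2 and 54.6 in PBSDC and 60.3, 56 and 54.8 in ZJDC. OMVSSDC replicate 3 was the highest of all 9. The log2 fold change of Clk4 in OMVSSDC was 0.37 with it alone and -0.03 without it (adjusted p = 0.686).

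The direct test of OMVSSDC against ZJDC, which is also the test of whether both comparisons with PBSDC differ, called 4 of the 51 genes lower and 0 higher, with 47 not called. At an unadjusted p under 0.05, edgeR had 30 lower and 1 higher, while DESeq2 called 23 lower and 1 higher and limma-voom 4 lower and 1 higher. The higher gene of both other tools was Clk1. Of all tested genes edgeR called 1.95%, 0.856% higher and 1.1% lower, against 7.84% of the splicing factor genes lower. Of all 11568 tested genes DESeq2 called 838 lower and 806 higher, and limma-voom 178 lower and 120 higher. The share of all tested genes at an unadjusted p under 0.05 was not counted, so that the 30 and 1 cannot be set against it. The 4 genes were Sfpq (log2 fold change -0.53 ± 0.08, adjusted p = 0.0266), Tra2b (-0.48 ± 0.10, adjusted p = 0.0499), Srsf6 (-0.36 ± 0.06, adjusted p = 0.0299) and Srsf1 (-0.26 ± 0.05, adjusted p = 0.0463). Adjusted p reached 0.168, 0.216, 0.168 and 0.206 over the settings, in that order, and fell to 1.16e-11, 4.26e-11, 1.54e-07 and 8.24e-06. The groups did not overlap for 29 of the 51 genes, against 24% of all tested genes, and the median log2 fold change was -0.21 against 0.01. The count of 4 lower genes changed with every library left out. Without OMVSSDC replicate 3, 35 genes were called lower and 5 higher. In that fit 28% of all 11761 tested genes were lower (3296) and 3243 were higher, so that the rise in calls was not particular to the 51 genes. With replicate 3 as the only OMVSSDC library the median log2 fold change was -0.14 over the 51 genes and -0.01 over all tested genes. When any of the other 8 libraries was left out, 0 of the 51 were lower, with 0 to 17 of all tested genes lower.

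OMVSSDC replicate 3 was higher than both other replicates for 29 of the 51 genes, lower for 16 and between them for 6. It lay nearer the ZJDC mean than the mean of replicates 1 and 2 for 35 genes. The genes that differed by more than 1.5-fold between replicate 3 and that mean numbered 3, namely Hnrnpd and Srsf11, higher in replicate 3, and Hnrnpa0, lower. These and the other genes named for this split were picked after their values were seen. The median over genes of the SD as a percent of the mean was 10.4% in OMVSSDC, against 2.82% in PBSDC and 3.89% in ZJDC. Over the 51 genes the log2 difference of replicate 3 was described by a Pearson r of 0.42 with log10 of the gene length and -0.32 with GC content. Replicates 1 and 2 also had the lowest mitochondrial shares of counts, 1.81% and 1.86%, against 4.44% in replicate 3. What part library preparation had in this split was not tested. Besides Srsf11, the decreases of Tra2a, Hnrnpa3, Ptbp3 and Sf1 in OMVSSDC were much smaller with replicate 3 alone, at -0.52, -0.31, -0.34 and -0.32 against -0.87, -0.57, -0.61 and -0.55. Smaller too were those of Ptbp1 (-0.93 against -1.26), Tra2b (-0.95 against -1.19), Hnrnpu (-0.83 against -1.07) and Hnrnpr (-0.79 against -1.05), among others. Some decreases were larger with replicate 3 alone. They included Srsf3 (-1.30 against -1.01), Srsf7 (-1.31 against -0.96), U2af2 (-1.12 against -0.81) and U2af1 (-0.70 against -0.48). The count of genes more than 2-fold lower was not repeated for these settings.

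Levels between genes were compared per gene length, as deposited FPKM, which scale counts by gene length and library total. In PBSDC Hnrnpa1 was highest at 283 ± 6.46 FPKM (SD, n = 3), followed by Hnrnpab (145 ± 5.4), Hnrnpf (142 ± 3.31), Pcbp1 (139 ± 9.12) and Hnrnpa2b1 (133 ± 1.8). The last 4 neighbours lie within or near each other's spread, whereas Hnrnpa1 lies far above them. The lowest were Hnrnpll (8.3 ± 0.546), Srsf4 (7.48 ± 0.491) and Hnrnpr (7.34 ± 0.194), and these 3 were also the lowest in ZJDC and OMVSSDC. In OMVSSDC Hnrnpa1 stayed first at 148 ± 14.7 FPKM, followed by Pcbp1 (123 ± 12.9) and Hnrnpf (110 ± 10.6). Hnrnpab moved from rank 2 in PBSDC to 9 in OMVSSDC and 6 in ZJDC. Rbm39 moved from 17 to 4 in both, and Sfpq from 9 to 17 in OMVSSDC and 14 in ZJDC. Hnrnpc, at 71.5, 75.6 and 79.5 FPKM in PBSDC, OMVSSDC and ZJDC, moved from rank 14 to 5 and 7. FPKM are relative to raw library totals, so that Hnrnpc was higher in OMVSSDC than in PBSDC in FPKM and lower in TMM-scaled CPM, within the spread in the latter.

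A list of other splicing genes gave the background of the pathway. It held 146 genes, of which 142 were tested. In OMVSSDC against PBSDC 99 of them were lower, 7 higher and 36 not called, with a median log2 fold change of -0.52. These are 69.7% lower and 4.93% higher, against 30.2% and 33.4% of all tested genes. In ZJDC against PBSDC 91 were lower, 6 higher and 45 not called, with a median of -0.43, or 64.1% lower and 4.23% higher, against 27.1% and 27.6% of all tested genes. The largest decreases in OMVSSDC were those of Lsm3, of the LSm ring on U6 (-1.69 ± 0.09, adjusted p = 2.5e-07), the export helicase Ddx39a (-1.62), Luc7l3 (-1.54), the Sm protein Snrpd1 (-1.45) and Celf2 (-1.35). In ZJDC they were those of Ddx39a (-1.61 ± 0.09, adjusted p = 3.94e-07), the tri-snRNP protein Prpf31 (-1.28), Lsm3 (-1.18), Bud31 (-1.11) and Lsm6 (-1.10). All 13 tri-snRNP proteins of the list were lower in ZJDC and 11 of 13 in OMVSSDC. Of the 8 minor spliceosome genes 3 were lower and 2 higher in OMVSSDC, with a median of 0.14. These shares, 37.5% lower and 25% higher, are near the 30.2% and 33.4% of all tested genes. Of the same 8 genes 1 was lower and 0 higher in ZJDC by edgeR. At an unadjusted p under 0.05 the latter was 1, and by DESeq2 1 and by limma-voom 0. The share of all tested genes at that unadjusted threshold was not counted.

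The called increases among these other genes were few. Ddx17, a DEAD-box helicase, rose by 1.11 in OMVSSDC (SE 0.10, adjusted p = 6.58e-06) and by 0.77 in ZJDC (SE 0.10, adjusted p = 0.000115). Its levels were 192, 191 and 191 CPM in PBSDC, 322, 325 and 328 in ZJDC and 448, 452 and 339 in OMVSSDC, with no overlap. Clk3, another CLK kinase, rose by 0.46 in both, Taf15 by 0.41 and 0.44, and Nova1, at 10.5 to 13.5 CPM in PBSDC, by 0.73 and 0.94. Clk3 was among 6 SR protein kinase and phosphatase genes of the list. In OMVSSDC 4 of the 6 were lower (66.7%, against 30.2% of all tested genes) and 1 higher, with a median of -0.5. In ZJDC 2 were lower (33.3%, against 27.1%) and 1 higher, with a median of -0.26. Pdcd7 rose by 0.40 in OMVSSDC (adjusted p = 0.0337), with -0.01 in ZJDC, and the test of OMVSSDC against ZJDC did not call the difference (adjusted p = 0.103). With replicate 3 as the only OMVSSDC library its value was -0.01, and without replicate 3 it was 0.57 (adjusted p = 4.27e-06). Ptbp2, the neuronal relative of Ptbp1 whose transcript Ptbp1 is known to repress, rose by 0.57 in ZJDC (SE 0.13, adjusted p = 0.00361). It was at 52.3, 49 and 51.3 CPM in PBSDC, 77.1, 75.6 and 73.3 in ZJDC and 48.8, 53.8 and 73 in OMVSSDC. OMVSSDC replicate 3 was close to ZJDC and the other replicates lay at the PBSDC level, so that Ptbp2 was not called in OMVSSDC (0.20 ± 0.13, adjusted p = 0.189). The counts of higher genes were small and moved with single libraries, from 4 to 12 in OMVSSDC and 5 to 12 in ZJDC when libraries were left out in turn. They were 12 and 12 without OMVSSDC replicate 3, against 4584 and 4143 of all 11761 tested genes. In OMVSSDC they were 4 when any 1 of the PBSDC libraries was left out. In OMVSSDC against ZJDC 2 of the 142 were lower by edgeR, Lsm3 (-0.51) and the paraspeckle protein Pspc1 (-0.40), and 0 were higher. At an unadjusted p under 0.05 edgeR had 9 higher, a threshold at which the share of all tested genes was not counted. By adjusted p DESeq2 called 1 higher and limma-voom 0. Without OMVSSDC replicate 3, 76 of the 142 were lower and 32 higher, against 28% of all 11761 tested genes lower and 3243 higher. When any of the other 8 libraries was left out, 0 of the 142 were lower.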

How the data were processed

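Total RNA of 9 DC2.4 libraries was sequenced. Per the submitters' processing notes, fastp 0.22.0, HISAT2 2.1.0 and HTSeq 0.9.1 were used on the reads, with a genome build and annotation that the sources used here do not state. The authors deposited whole-number read counts per gene and FPKM values. Each deposited FPKM could be recomputed from the count, the gene length in the table and the library total, to within 4.08e-06.

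The tests used edgeR 4.0.16 under R 4.3.3. Its filterByExpr, with a minimum count of 10 and a minimum total of 15, left 11568 genes, including all 51 splicing factor genes. Libraries were scaled with TMM. A quasi-likelihood model with the group as its factor and robust estimation was fitted to all 9 libraries (6 residual degrees of freedom), and 3 contrasts were tested two-sided with Benjamini-Hochberg adjustment over all tested genes. Dividing a log2 fold change by the root of its F statistic gave the SE. Alternatives were RLE factors, library size alone, no filter, a minimum count of 50, DESeq2 1.42.0, limma-voom (limma 3.58.1), a replicate block, only the 2 groups compared, each library left out, OMVSSDC replicate 3 as the only OMVSSDC library (then assumed to vary like the other groups), and removal of gene length trends. Removal of length and GC trends was added after the data were seen. GC content came from GENCODE M21 transcripts matched by gene identifier (51 of 51). Gene starts matched GRCm38 for 517 of 21851 genes, so that the table's coordinates were not used. Promoter windows came from RefSeq (GRCm38.p6).

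In each comparison with PBSDC the largest called changes per role and direction (up to 3 for SR proteins, 2 otherwise) are given in full, then the genes not called, and the 5 largest per direction among other splicing genes with a mean of at least 5 CPM. The genes and lists were chosen with earlier results of these data known. The scripts were tested on simulated data.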

Additional observations from a re-analysis of the deposited data

How the results depend on the processing

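Over 20 alternative settings 42 of the 45 splicing factor genes called in OMVSSDC against PBSDC stayed called in all, and 37 of the 43 in ZJDC against PBSDC. The exceptions were Hnrnpdl, Hnrnph2 and Pcbp1 in the first and Hnrnpa0, Hnrnpa3, Pcbp1, Sf1, Rbm39 and Clk1 in the second, and none of these changed sign. Of the genes not called, 6 passed the threshold under some setting in each. In OMVSSDC against ZJDC none of the 4 calls held in all settings, and 38 uncalled genes passed somewhere. The cause of the shifts below was not tested.

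With library size alone the median log2 fold change of all tested genes in OMVSSDC against PBSDC moved from 0.05 to 0.18 and that of the 51 genes from -0.77 to -0.65. That setting gave 3 splicing factor genes higher in OMVSSDC against PBSDC, 4 in ZJDC against PBSDC and 1 in OMVSSDC against ZJDC. Other splicing genes higher numbered 11, 10 and 0 in those comparisons, with 0 lower in the last. Of all 11568 tested genes 4672, 3631 and 115 were higher, and 91 lower in the last. With OMVSSDC replicate 3 as the only OMVSSDC library the splicing factor genes higher were 3, 4 and 1 in the same order, the other splicing genes higher 11 and 12 in those with PBSDC, and 9 splicing factor genes were lower in OMVSSDC against ZJDC. That setting leaves 1 OMVSSDC library, whose spread had to be assumed, so that no conclusion is drawn from these counts. The median log2 fold change over the 51 genes was -0.71, -0.56 and -0.14 in the same order. Over all tested genes it was 0.01, 0.01 and -0.01. Under this setting Srsf7 stood at -0.33 in OMVSSDC against ZJDC, and Pdcd7 in OMVSSDC against PBSDC turned to -0.00518. Without OMVSSDC replicate 3 Srsf7 was instead called higher in OMVSSDC against ZJDC, at 0.17 (adjusted p = 0.0218). With only the 2 groups compared, 4 other splicing genes were higher in OMVSSDC against PBSDC, as were 3410 of all 11393 tested genes. In ZJDC against PBSDC 4 splicing factor genes and 12 others were higher, as were 4030 of all 11398. In OMVSSDC against ZJDC 0 of either were lower, and 0 of all 11430. With length and GC trends removed 3 splicing factor genes were higher in OMVSSDC against PBSDC, as were 3764 of all 11534 tested genes. In OMVSSDC against ZJDC 8 splicing factor genes and 8 others were lower and 1 splicing factor gene higher. Of all tested genes 326 were lower and 237 higher there. With the length trend alone removed 10 splicing factor genes were lower and 1 higher there, against 227 and 141 of all 11568 tested genes. In the last comparison DESeq2 gave 23 splicing factor genes and 31 others lower and 1 of each higher. Of all 11568 tested genes it called 838 lower and 806 higher. Limma-voom gave 4 others lower and 1 splicing factor gene higher, the stricter filter 1 splicing factor gene higher, and no filter 4 others lower. Of all tested genes limma-voom called 178 lower and 120 higher. The stricter filter gave 106 of 10038 higher, and no filter 161 of 17043 lower.

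When 1 library was left out, splicing factor genes higher ranged from 0 to 4 in ZJDC against PBSDC. The lowest value came without ZJDC replicate 1, where 2793 of all 11698 tested genes were higher. In OMVSSDC against ZJDC they ranged from 0 to 5 higher and 0 to 35 lower, and other splicing genes from 0 to 32 higher and 0 to 76 lower. All these counts were highest without OMVSSDC replicate 3, where 28% of all 11761 tested genes were lower and 3243 higher. Other splicing genes higher ranged from 4 to 12 in OMVSSDC against PBSDC and from 5 to 12 in ZJDC against PBSDC. Shares of counts without mitochondrially encoded genes were 1.14% in OMVSSDC, 1.9% in PBSDC and 1.3% in ZJDC.

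The groups share replicate numbers, but deviations of same-numbered libraries correlated at -0.115 to 0.0723 (OMVSSDC and PBSDC), -0.0225 to 0.0887 (ZJDC and PBSDC) and -0.388 to -0.124 (OMVSSDC and ZJDC). Of the 3 first-named samples, 1, 2 and 0 correlated best with their own number. A replicate block gave 44 and 38 splicing factor genes lower in the comparisons with PBSDC, against 28.5% and 24.4% of all tested genes. In OMVSSDC against ZJDC it gave 0 splicing factor genes, 0 other splicing genes and 0 of all tested genes lower.

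The number of libraries, 3 a group, limits the precision of all comparisons. The lowest count of a splicing factor gene was 250 (Srsf4), and counting error was not compared with the spread between libraries.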
